A study of Mus musculus with 2 samples.

Results

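The genes described are the mouse cytochrome P450 genes, without the retinoic acid hydroxylases of the Cyp26 family, and the UDP-glucuronosyltransferase (UGT) genes of the Ugt1, Ugt2 and Ugt3 families. They were chosen by symbol among the protein-coding genes of the GENCODE M21 annotation, which gave 118 of the 21938 such genes on nuclear chromosomes. Of these, 81 belong to the families Cyp1 to Cyp4, most of which act on drugs, toxins and fatty acids, 16 belong to the other P450 families, which act mainly on sterols, steroids, bile acids and vitamin D, and 21 are UGT genes. The data are DNase-seq maps of open chromatin from whole, healthy B6NCrl mouse embryos at embryonic day 10.5, both sexes together. In this assay the enzyme DNase I cuts DNA where nucleosomes are displaced, and the cut ends are sequenced. The series holds 2 biological replicates of this 1 group, so it offers no contrast between conditions, and the members were compared with all protein-coding genes.

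Cytochrome P450 enzymes insert an oxygen atom into their substrates and receive the electrons for it from P450 oxidoreductase or, in mitochondria, from ferredoxin. The families Cyp1 to Cyp4 are best known from the adult liver and gut, where many are induced by the chemicals they break down through receptors such as the aryl hydrocarbon receptor. UGT enzymes then attach a sugar to the product so that it can be excreted. The sterol-directed families make cholesterol, steroid hormones and bile acids, and several of them work in nearly every cell or in the brain.

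Replicate 1 held 207946 peaks and replicate 2 held 229568 on the nuclear chromosomes. Each peak was 150 bp wide and carried a score given by the authors, called strength here, with medians of 41 and 50. The definition of this score and the depth of the libraries are unknown, so strength only ranks peaks, and no counting error can be given. A gene was called open if both replicates had a peak no more than 1 kb from 1 of its annotated transcription start sites (TSSs). In a whole embryo, fewer accessible cells and lower accessibility in each cell cannot be told apart. All 5 promoters of a neural tube list and all 6 of an adrenal and gonad list were open, against 7 of 12 for early liver and gut endoderm, 4 of 7 for yolk sac endoderm, 4 of 6 for maternal decidua and 69.7% of all protein-coding genes. In the liver list Afp was open with strengths of 74 and 89, and Alb, Ttr, Apoa1, Hnf4a and Serpina1a had no promoter peak in either replicate. Both placental prolactin genes of the decidua list, Prl8a2 and Prl6a1, also had none. What part the share of each tissue plays in the values below was not tested.

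The sequences under some of the strongest promoter peaks are shown as examples, which do not stand for the open members as a whole. Each is read 5′ to 3′ on the strand of its gene from the GRCm38 (mm10) reference at the replicate 1 peak, leaving out bases annotated as UTR, and for Ugt1a7c also the coding bases after them. Capitals mark matches to the GC box GGGCGG or the CCAAT box CCAAT on either strand. They come from the strongest open gene of each class, from Cyp51, the lanosterol demethylase of cholesterol synthesis, and from Cyp1b1, the strongest Cyp1 gene.
Cyp2u1, chr3:131303225-131303325, minus strand: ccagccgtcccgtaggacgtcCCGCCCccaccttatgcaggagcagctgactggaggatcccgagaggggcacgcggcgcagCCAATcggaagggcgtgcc
Cyp46a1, chr12:108334136-108334285, plus strand: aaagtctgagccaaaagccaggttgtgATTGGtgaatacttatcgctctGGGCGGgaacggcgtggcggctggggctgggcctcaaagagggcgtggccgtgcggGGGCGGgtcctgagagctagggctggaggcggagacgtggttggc
Cyp51, chr5:4104747-4104845, minus strand: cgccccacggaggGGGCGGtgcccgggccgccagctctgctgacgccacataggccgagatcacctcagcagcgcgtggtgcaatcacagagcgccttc
Cyp1b1, chr17:79715716-79715865, minus strand: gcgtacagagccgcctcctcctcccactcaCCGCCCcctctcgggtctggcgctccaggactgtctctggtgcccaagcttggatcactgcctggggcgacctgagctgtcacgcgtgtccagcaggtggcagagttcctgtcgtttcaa
Ugt1a7c, chr1:88095016-88095061, plus strand: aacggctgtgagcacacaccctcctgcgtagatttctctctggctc
The P450 stretches, 101, 150, 99 and 150 bases long in the order shown, hold from 9 to 11 CpG pairs and at least 1 GC box each. The Ugt1a7c stretch, 46 of the 150 bases of its peak and so not comparable in its count of CpG pairs, holds neither box. The CCAAT box of Cyp51 and a CAAGGTCA match of Cyp2u1, counted further on, lie in the bases left out.

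Most members were without a promoter peak. In all, 31 of the 118 members (26.3%) were open, against 69.7% of all protein-coding genes. The share was 18 of 81 (22.2%) for Cyp1 to Cyp4, 4 of 21 (19.0%) for UGT genes and 9 of 16 (56.2%) for the other P450 families. No peak in either replicate was found for 79 members, which is 66.9% of them against 27.0% of all genes: 57 Cyp1 to Cyp4 genes, 5 genes of the other families and 17 UGT genes. Hotspots, the wider regions of enriched cutting that the authors called separately, gave the same 31 open members, against 70.0% of all genes, and no member had a promoter hotspot in both replicates without a peak in both. The UGT count rested on weak or distant peaks, since it was 2 with a window of 500 bp and 1 with the stronger peaks only, those at or above the median strength of their replicate. Absence of a peak in a whole embryo does not show that a promoter was inaccessible in every cell type.

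Subfamilies differed widely. None of the 15 Cyp2c genes, the 9 Cyp3a genes, which encode the main drug-oxidising enzymes of the liver, or the 8 Cyp4a fatty acid hydroxylase genes had a promoter peak in either replicate. The same held for all 4 Cyp2a genes, 7 Ugt2b genes, 3 Ugt2a genes and 2 Ugt3a genes. In the Cyp1 to Cyp4 families it also held for Cyp1a2, Cyp2ab1, Cyp2e1, Cyp2f2, Cyp2g1, Cyp2t4 and Cyp4b1. By contrast 6 of 9 Cyp4f genes, 4 of 9 Ugt1a genes, 3 of 8 Cyp2j genes and 1 of 8 Cyp2d genes were open. By family the count was 2 of 3 for Cyp1, 8 of 49 for Cyp2, 0 of 9 for Cyp3 and 8 of 20 for Cyp4.

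**Figure D1:**
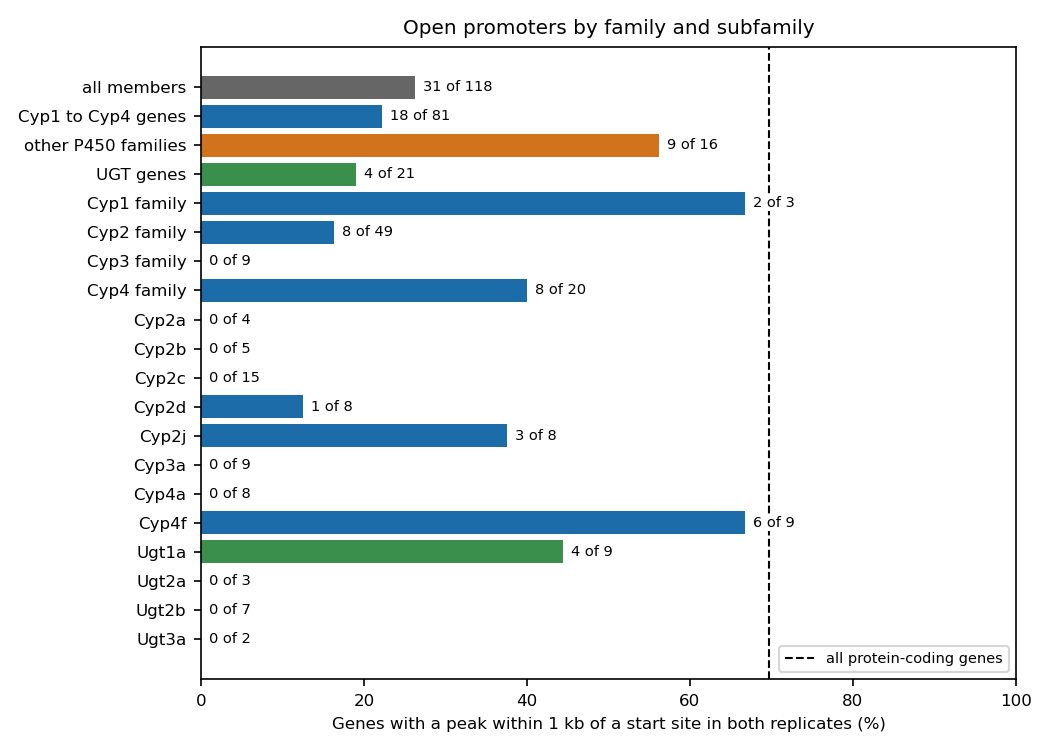
Bars give the percent of genes with a peak within 1 kb of an annotated start site in both replicates, with the number of open genes of all genes beside each bar, and the dashed line marks the 69.7% of all protein-coding genes. Cyp2c, Cyp3a, Cyp4a, Cyp2a, Cyp2b and the Ugt2 and Ugt3 subfamilies stand at 0, and Cyp4f with 6 of 9 comes closest to the line among the larger subfamilies.

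Among the sterol-directed and other families, the open genes are given first above and then below the median of all open genes. Cyp46a1, which hydroxylates cholesterol in neurons, had the strongest promoter of all members, with 133 in replicate 1 and 131 in replicate 2 (mean 132 ± 1.41, SD, n = 2). Cyp39a1, an oxysterol hydroxylase of bile acid synthesis, gave 127 in replicate 1 and slightly less in replicate 2 (mean 125 ± 2.83, SD, n = 2), and the neighbouring gene Slc25a27 also has a TSS within 1 kb of its peak. Cyp51 gave 121 and 122, and the orphan enzyme gene Cyp20a1 gave 115 and 125. These 4 lay above the median of all open genes, which was 109 in replicate 1 and 118 in replicate 2.

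Those below that median were genes of hormone, bile acid and vitamin D metabolism, while Cyp39a1, also of bile acid synthesis, was above it. Cyp27a1, the mitochondrial sterol hydroxylase, had peaks of 87 and 113, which lay side by side 5′ of its TSS and did not overlap each other. Cyp24a1, which inactivates vitamin D, gave 66 and 91 and shares the region with the TSS of Pfdn4. Cyp7b1, an oxysterol hydroxylase, gave 52 and 66, also from peaks that did not overlap each other. The SD between the replicates was 18.4 for Cyp27a1, 17.7 for Cyp24a1 and 9.90 for Cyp7b1. Cyp27a1 was above Cyp24a1 in both replicates. Cyp17a1, needed for androgens, gave 81 and 91, and Cyp19a1, the aromatase that makes estrogens, gave 68 and 98. Neither peak was at the gene's main promoter: that of Cyp17a1 lay in an intron 2302 bp into the gene in replicate 1, and that of Cyp19a1 in a non-coding exon or UTR 86620 bp from its 5′-most TSS, each near the start of a transcript annotated as a retained intron. With the 5′-most TSS of each gene alone, 7 of the 16 genes were open, against 65.3% of all genes.

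Of the remaining 7 genes of these families, Cyp21a1, a steroid hydroxylase of the adrenal gland, had a peak in replicate 2 only, with a strength of 26. Cyp27b1, which activates vitamin D, likewise had 46 in replicate 2 only. No promoter peak was found for Cyp7a1 and Cyp8b1, the liver hydroxylases that set the amount and kind of bile acids, or for Cyp11a1, Cyp11b1 and Cyp11b2, which carry out the first and last steps of adrenal steroid synthesis.

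In the Cyp1 family Cyp1b1, which oxidises estrogens, retinoids and aromatic hydrocarbons, was strong, with 113 and 120. Its strongest peak ended 655 bp upstream of the TSS in replicate 1. Cyp1a1, the classic target of the aryl hydrocarbon receptor, gave 36 and 53, and its neighbour Cyp1a2 gave no peak. The strongest Cyp1a1 peaks lay at 2 different sites. In replicate 1 it was an intron 382 bp from the 5′-most TSS, and in replicate 2 a site near an internal TSS. Both sites had a peak in both replicates, with 36 and 39 at the first and 32 and 53 at the second. Cyp1a1 was also the only gene of this class that was lost when the stronger peaks alone were kept.

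The strongest promoters of the Cyp2 family belonged to 2 members that stand alone in the genome. Cyp2u1, a fatty acid hydroxylase, gave 125 and 127, and Cyp2r1, which carries out the first hydroxylation of vitamin D, gave 114 and 126. Both peaks covered a TSS, as did the strongest replicate 1 peak of 14 of the 31 open members. The matching share of all open genes was not counted. Among the arachidonic acid epoxygenase genes of the Cyp2j run, Cyp2j6 gave 85 and 95, Cyp2j9 gave 64 and 77 and Cyp2j13 gave 48 and 61. Cyp2d22 gave 52 and 78, from peaks that did not overlap each other, and Cyp2s1 gave 41 and 61. Cyp2w1 gave 68 and 84 at a site 760 bp from an internal TSS, and it was not open at its 5′-most TSS. Weak peaks in replicate 2 only were found for Cyp2j11 (28), Cyp2j12 (26), Cyp2b10 (26), Cyp2b19 (24) and Cyp2d12 (18), and one in replicate 1 only for Cyp2d9 (9). Across all genes 1.09% had a peak in replicate 1 only and 2.18% in replicate 2 only.

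Of the 8 open Cyp4 genes 6 were Cyp4f genes, whose products hydroxylate the end of fatty acids and leukotrienes. At their 5′ promoters Cyp4f15 gave 66 and 80, Cyp4f16 gave 77 and 86, and Cyp4f17 gave 83 and 100. For Cyp4f13 (106 and 106), Cyp4f37 (92 and 100) and Cyp4f39 (76 and 98) the strongest peak lay near the 3′ end of the gene, beside the start of a transcript annotated as a retained intron. Cyp4f13 (84 and 100) and Cyp4f39 (54 and 80) were also open at the 5′-most TSS, and Cyp4f37 was not. Cyp4v3, a fatty acid hydroxylase gene that stands alone, gave 89 and 103, and Cyp4x1 gave 42 and 55. The Cyp4x1 values came from peaks that did not overlap each other. Cyp4f14, Cyp4f18 and Cyp4f40 had no promoter peak. All 9 of 9 Cyp4f genes, these included, had a shared peak centred inside the gene within 1500 bp of its 3′ end, against 9.40% of the 17798 protein-coding genes at least 5000 bp long. This window was chosen after the peaks were seen.

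All 4 open UGT genes lay in the Ugt1a locus, where a row of alternative first exons is spliced to shared downstream exons. Ugt1a1, which conjugates bilirubin, gave 45 and 44 at its TSS, and Ugt1a7c gave 43 and 54. Ugt1a9 gave 34 and 43 and Ugt1a6a gave 24 and 41, with peaks that ended 875 bp and 624 bp upstream of the TSS in replicate 1. These are weak among open promoters: Ugt1a7c stood at the 5.24th percentile of all 15300 open genes by mean strength and Ugt1a6a at the 1.18th. The first exons of Ugt1a10, Ugt1a8, Ugt1a6b, Ugt1a5 and Ugt1a2 had no peak.

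The open members were weaker than open genes in general. Their median strength, as the mean of the replicates, was 83 against 114 for all open genes: 84.2 for Cyp1 to Cyp4, 100 for the other P450 families and 41.5 for UGT genes. Only 7 of the 31 lay above the median of all open genes, namely Cyp46a1, Cyp2u1, Cyp39a1, Cyp51, Cyp2r1, Cyp20a1 and Cyp1b1. The value was higher in replicate 2 for 27 of the 31 and lower for Cyp39a1, Cyp46a1 and Ugt1a1, and Cyp4f13 was equal. Replicate 2 was higher in 83.3% of all open genes. The median SD between replicates was 9.19 for the open members and 5.66 for all open genes.

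**Figure D2:**
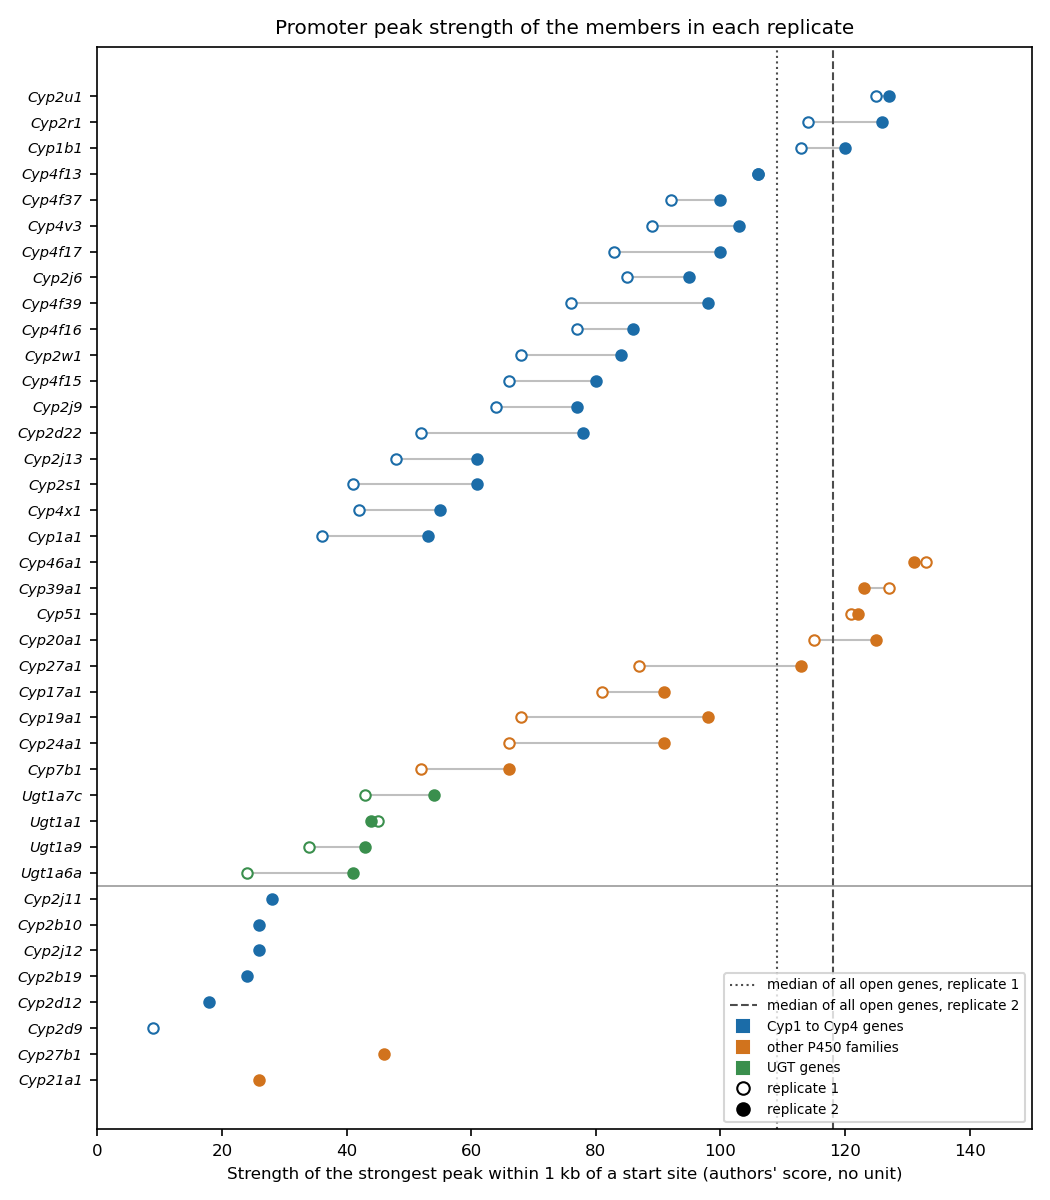
Each row is a member with a promoter peak in at least 1 replicate, and the horizontal axis is the authors' strength of its strongest peak within 1 kb of a start site, open circles for replicate 1 and filled circles for replicate 2. The 31 open members stand above the horizontal line, from Cyp46a1 at 133 and 131 down to Ugt1a6a at 24 and 41, and the 8 genes with a peak in 1 replicate only stand below it, from 9 to 46.

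Partner genes of these enzymes were read at their promoters in the same way, from lists of their pathways. All 6 electron donor genes were open, among them Por, the P450 oxidoreductase (132 and 137), and Fdxr, the ferredoxin reductase (128 and 137). All 5 genes for making or moving the sugar donor of UGT enzymes, or for removing the sugar from their products, were open. Their median was 122, and Ugdh was among them (128 and 130). Of the cholesterol synthesis genes around Cyp51 21 of 21 were open, with a median of 133. Of 14 receptors and partners that control P450 genes 9 were open, including Ahr (84 and 107), Arnt (128 and 136) and Rxra (107 and 111). The drug receptor Nr1i2 had 20 in replicate 1 only, the bile acid receptor Nr1h4 had 24 in replicate 1 only, and Nr1i3, Hnf4a and Nr0b2 had no peak. Of 10 partners of steroid synthesis 6 were open with a median of 66.2, including Star, which brings cholesterol into mitochondria (47 and 37), and Nr5a1 (45 and 79), and 69.7% of all genes were open.

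Most members stand in runs of neighbouring paralogs, taken here as members whose bodies lie within 100 kb of each other. Of the 25 members with no other member that near, 15 (60%) were open, against 69.7% of all protein-coding genes. In runs of 2 to 4 members it was 3 of 22 (13.6%), and in runs of 5 or more 13 of 71 (18.3%). The difference between the P450 classes was smaller among lone genes, with 6 of 11 Cyp1 to Cyp4 genes (54.5%) and 9 of 14 of the other families (64.3%) open. Only 2 genes of the other families, Cyp11b1 and Cyp11b2, stand in a run.

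The runs themselves ranged from empty to dense. Across the nuclear chromosomes there were 5.58 shared peaks per 100 kb, counting peaks paired one to one between the replicates. The larger Cyp2c run, 10 genes over 879.8 kb of chromosome 19, held 1 shared peak with a mean strength of 24. The smaller Cyp2c run of 4 genes over 195 kb, both Cyp3a runs of 239 and 419 kb and the first Ugt2b run of 251 kb held 0. The Cyp2j run held 7 in 637 kb (1.10 per 100 kb) and the run of Cyp4a genes with Cyp4b1 held 6 in 406 kb (1.48 per 100 kb). The Cyp4f run of 6 genes on chromosome 17 held 19 in 251 kb (7.58 per 100 kb), the pair Cyp4f13 and Cyp4f14 held 3 in 42.3 kb, and the Ugt1a run held 19 in 165 kb (11.5 per 100 kb).

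In the Ugt1a locus the strongest of the 19 shared peaks, with 113 and 129, lay at the TSS of Dnajb3, a chaperone gene inside the locus that is no UGT gene. The other 18 had mean strengths of 49 or less. Of these, 8 followed one another over 4.66 kb downstream of the Ugt1a1 first exon, with mean strengths from 28.5 to 38.

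**Figure D3:**
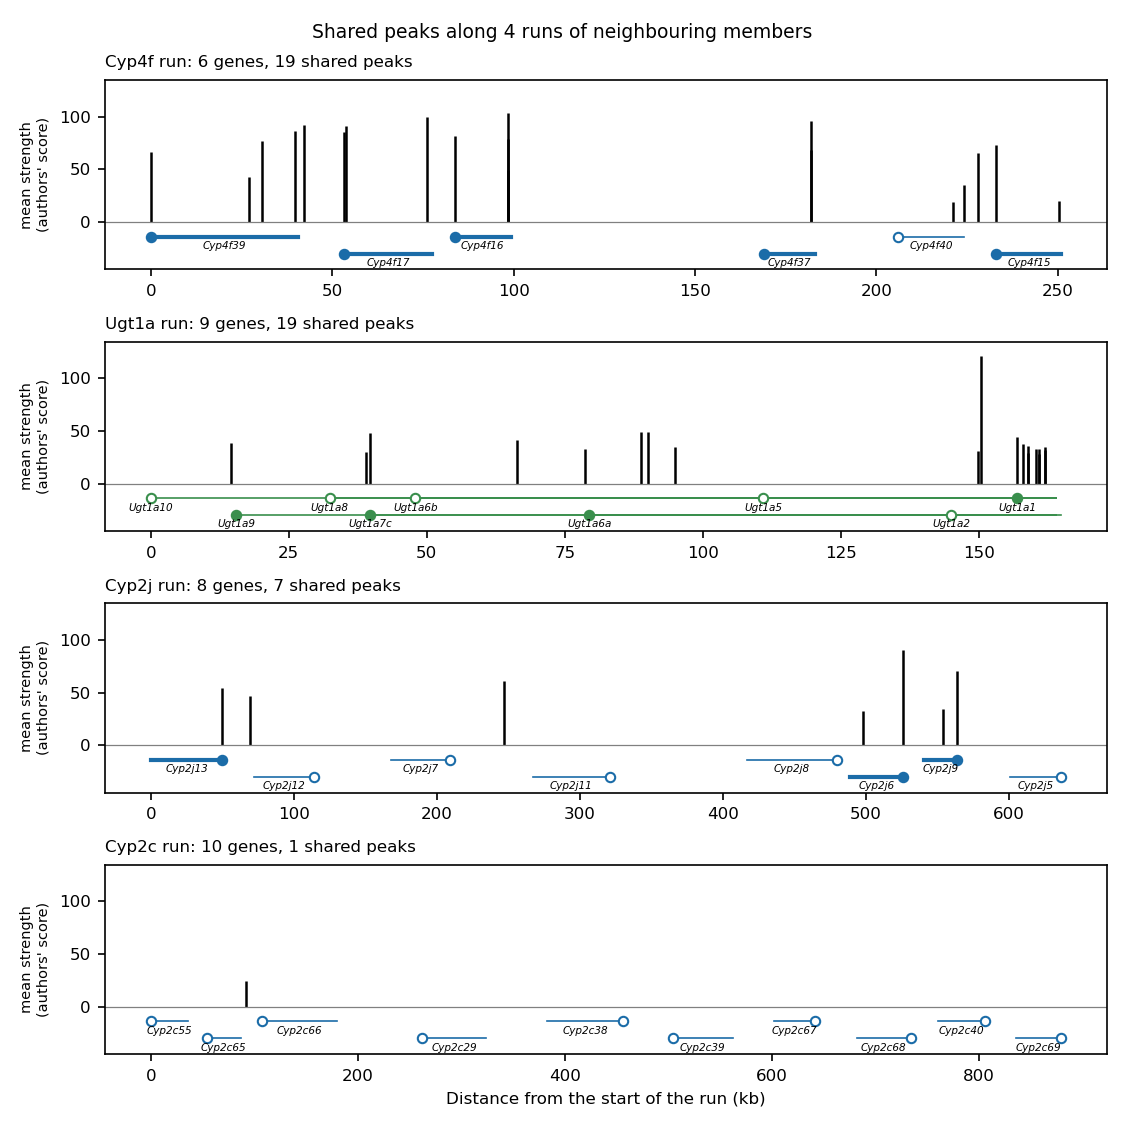
Vertical lines are shared peaks, their height the mean of the authors' strength over both replicates, along 4 runs drawn by distance in kb from the start of the run, and horizontal lines are genes with a circle at the 5′-most start site, filled where the gene was open. The Cyp4f and Ugt1a runs hold 19 shared peaks each, the Cyp2j run holds 7 over 637 kb and the Cyp2c run holds 1 over 879.8 kb.

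Distal shared peaks, those over 1 kb from the TSS of any gene, were counted within 50 kb of each member's TSSs. The median was 1 for Cyp1 to Cyp4 genes, 1 for UGT genes and 5.50 for the other P450 families, against 5 for all protein-coding genes. Counting all distal peaks of replicate 1 or of replicate 2 alone, without the need to be shared, gave 3 and 3, 2 and 2, and 8.50 and 9.50, against 7 and 8. No shared one was found near 37 members (31.4%), against 12.8% of all genes. These were 28 Cyp1 to Cyp4 genes, 7 UGT genes and, in the other families, Cyp20a1 and Cyp51. The Cyp1 to Cyp4 genes with none were all 4 Cyp2a genes, 10 of 15 Cyp2c genes, 8 of 9 Cyp3a genes, Cyp2b9, Cyp2b13, Cyp2b23, Cyp2j7, Cyp2j11 and Cyp4a30b. The UGT genes with none were Ugt1a9, Ugt1a10, Ugt2a1, Ugt2b35, Ugt2b36, Ugt2b37 and Ugt3a1. Cyp51 and Cyp20a1 thus combined a strong promoter with no distal shared peak within 50 kb. Without the need to be shared, Cyp20a1 had 2 distal peaks in replicate 1 and 4 in replicate 2, and Cyp51 had 0 and 1.

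The most distal shared peaks surrounded Cyp46a1, with 19, followed by Cyp11a1 with 14, Cyp1b1 with 13, Cyp24a1 with 11, and Cyp2s1 and Cyp8b1 with 10 each. Cyp11a1 and Cyp8b1 had no promoter peak. At Cyp11a1, which cleaves the cholesterol side chain, the strongest distal peak lay in an intron of the gene itself, 2.67 kb from its nearest TSS, with 107 and 121. Of the other 13, 7 lay in introns of the neighbouring gene Ccdc33. A distal peak within 50 kb of a member is not shown to act on it, and 5 of the Cyp46a1 peaks lay in introns of Hhipl1.

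**Figure D4:**
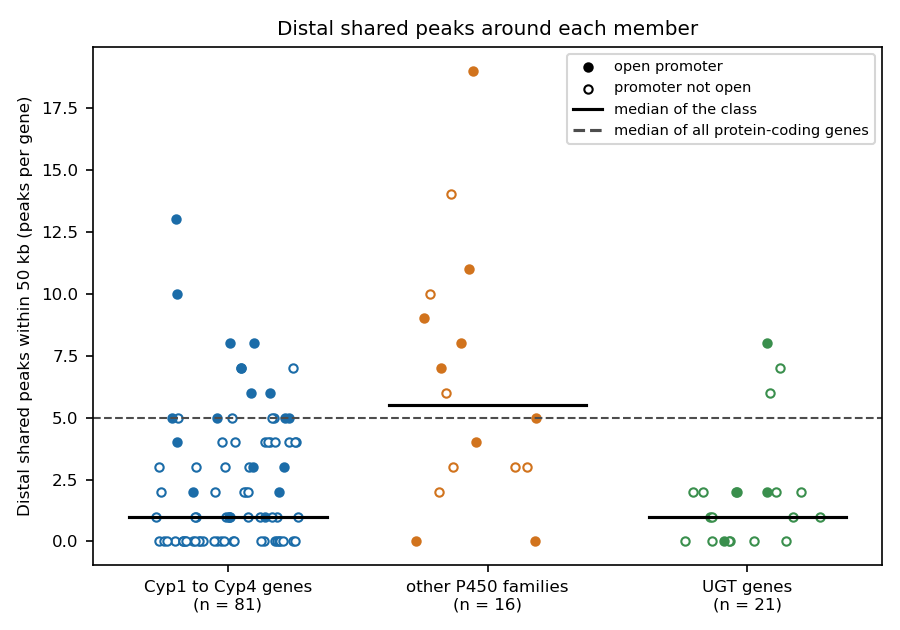
Each point is a member and the vertical axis is its number of distal shared peaks within 50 kb, filled where the promoter was open; points are spread sideways for legibility only. Class medians (solid lines) are 1, 5.50 and 1 from left to right, the dashed line is the median of 5 over all protein-coding genes, and Cyp46a1 with 19 is the highest point.

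Because paralogs share their surroundings, the members together had 256 distinct distal shared peaks, 137 near Cyp1 to Cyp4 genes, 101 near the 16 genes of the other families and 18 near UGT genes. Their median mean strength was 53, against 50 for all 111383 distal shared peaks, with 49.5, 61 and 38 in the classes. The strongest peak of each class is shown on the plus strand of GRCm38, with GC boxes in capitals.
Near Cyp2w1, chr5:139372216-139372365: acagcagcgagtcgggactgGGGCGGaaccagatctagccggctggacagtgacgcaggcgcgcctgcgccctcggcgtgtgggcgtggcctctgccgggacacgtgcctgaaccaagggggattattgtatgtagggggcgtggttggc
Near Cyp46a1, chr12:108320696-108320845: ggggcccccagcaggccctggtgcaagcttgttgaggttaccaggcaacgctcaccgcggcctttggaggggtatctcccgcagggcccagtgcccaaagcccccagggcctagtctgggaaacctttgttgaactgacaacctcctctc
Near Ugt2b5, chr5:87143176-87143325: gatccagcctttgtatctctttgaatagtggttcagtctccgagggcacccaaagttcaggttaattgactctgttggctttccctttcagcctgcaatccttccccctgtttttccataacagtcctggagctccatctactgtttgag
The peak near Cyp2w1 lies in an intron of 3110082I17Rik and had a mean strength of 116, that near Cyp46a1 lies in an intron of Hhipl1 with 122, and that near Ugt2b5 lies outside genes with 69.

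Short motifs were searched on both strands in the strongest replicate 1 promoter peak of each open gene, and a match describes letters, not binding. The GC box GGGCGG was in 8 of 18 Cyp1 to Cyp4 genes, 3 of 9 of the other families and 0 of 4 UGT genes, against 52.5% of all open genes. CCAAT was in 9 of 18, 3 of 9 and 1 of 4, against 30.2%, and 5 of the 9 were Cyp4f genes. The core of the aryl hydrocarbon receptor site, TNGCGTG, was in none of the 31 strongest replicate 1 peaks, against 4.13% of all open genes. In the strongest replicate 2 peaks it was in those of Cyp1a1 and Cyp4x1, against 4.31%, and the Cyp1a1 match lies in the peak near the internal TSS. A weaker replicate 1 peak of each of these genes holds it too. So do promoter peaks other than the strongest of Cyp2r1 in both replicates, of Cyp2j9 in replicate 1 and of Cyp2d22 in replicate 2. Among the members' promoter peaks with this core, that of Cyp2r1 was the strongest in each replicate. The share of all open genes with the core in such further peaks was not counted. The steroidogenic factor motif CAAGGTCA was in Cyp2u1 and Cyp4f37 (0.359% of all), and the HNF1 motif GTTAATNAT was in Ugt1a1 (0.105% of all). The antioxidant motif TGACNNNGC was in Cyp2j6, Cyp2s1, Cyp4f13 and Cyp19a1 (8.78% of all), and in replicate 2 also in Cyp1a1 and Cyp4f39 (8.43% of all). The sterol motif TCACCCCAC, the HNF4 motif CAAAGTCCA and TATAAA were in none of the strongest peaks of the 31 in either replicate, against 0.163%, 0.131% and 2.19% of all open genes in replicate 1. The GC box and CCAAT counts in replicate 2 were 13 and 14 of the 31, against 51.1% and 29.9%.

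Base composition and sequence copies moved with these counts. The ratio of observed to expected CpG pairs within 500 bp of the 5′-most TSS had a median of 0.15 over the members (0.13 for Cyp1 to Cyp4, 0.30 for the other P450 families, 0.17 for UGT genes) and of 0.55 over all genes. Of the members 80 fell among the 5485 genes of lowest ratio, and 8 of these (10%) were open, against 19.0% of all genes there. In the next 5484 genes 15 of 30 members were open (50%), against 64.8%. All 8 members with higher ratios were open, Cyp2r1, Cyp2u1, Cyp4v3, Cyp20a1, Cyp24a1, Cyp39a1, Cyp46a1 and Cyp51, against 96.5% and 98.7% of all genes in the upper groups. From the lowest to the highest group, the median strength of the open members was 74.5, 70.5, 120 and 127. All open genes of these groups gave 78, 93, 116 and 121. The upper groups held only 6 and 2 members.

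Reads from near-identical paralogs may be hard to place, and how the authors handled them is unknown. The share of 32-base words around the 5′-most TSS that occur once in the genome was therefore counted for each gene. Its median was 92.1% over the members and 100% over all genes. Of the 62 members with at least 90% such words 26 (41.9%) were open, against 78.4% of all genes. By class these were 16 of 39 Cyp1 to Cyp4 genes (41.0%, where all 81 gave 22.2%), 9 of 13 of the other families (69.2%) and 1 of 10 UGT genes (10%). Of the 39 between 50% and 90% it was 4 (10.3% against 43.3%), and of the 17 under 50% it was 1 (5.88% against 9.39%). Of the 31 members in the lowest CpG group with at least 90% unique words, 4 (12.9%) were open, against 26.1% of all such genes. Members with no other member within 100 kb had a median of 100% unique words and a CpG ratio of 0.35. It was 78.2% and 0.14 in runs of 2 to 4, and 87.8% and 0.13 in longer runs. Of the empty runs named above, the Cyp3a runs had medians of 44.8% and 65.3%, the Cyp2c run 71.1% and the Ugt2b run 92.1%. The larger Cyp4f run had 98.0%, the Ugt1a run 87.2% and the Cyp2j run 100%. The part of either property in the low counts was not tested further.

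**Figure D5:**
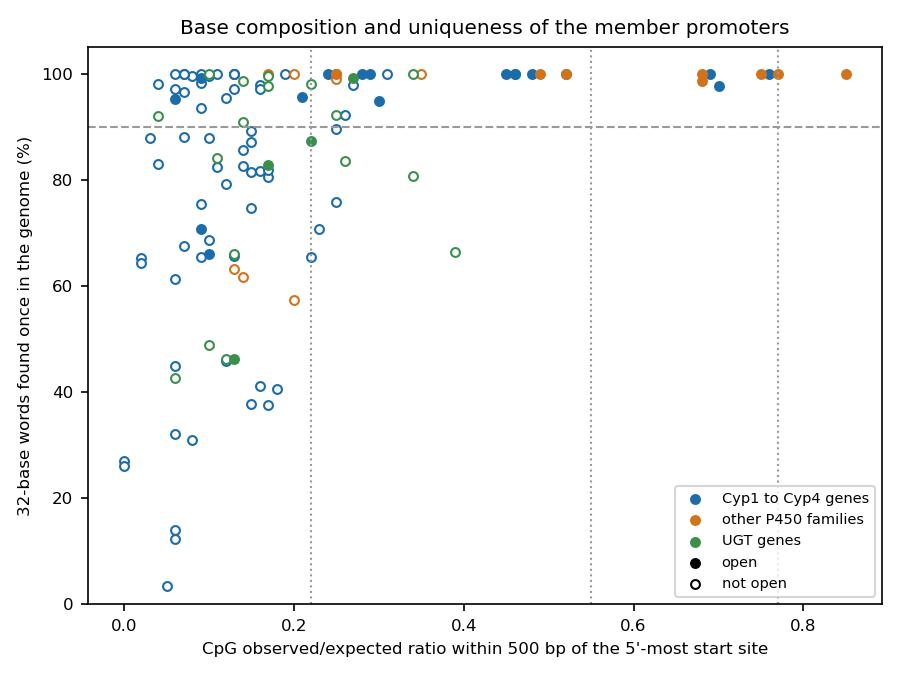
Each point is a member, with its CpG observed/expected ratio on the horizontal axis and the percent of unique 32-base words on the vertical axis, both within 500 bp of the 5′-most start site, filled where the promoter was open. Dotted lines mark the quartiles of all genes (0.22, 0.55 and 0.77) and the dashed line marks 90%; all 8 members to the right of 0.55 are open, and 8 of the 80 in the leftmost group are.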

How the data were processed

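Whole embryos had been assayed by DNase-seq in 2 biological replicates, and the authors deposited a peak list and a hotspot list for each, on mm10, per the labels. For the aligner, peak caller, thresholds and any correction for the cutting preference of DNase I: not given in the sources used here. The deposited peaks lie on a 20 bp grid, are 150 bp wide and have the authors' score, from 2 to 148 in replicate 1 and from 3 to 149 in replicate 2. For hotspots the authors deposited −log10 q-values of 1.30 to 100, and all hotspots were kept. Depth is unknown, and no p-value was computed.

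The 28 and 47 repeated peaks and those off the 21 nuclear chromosomes were dropped. Peaks were paired one to one between replicates by best overlap of at least 1 bp and are given at replicate 1 coordinates. Genes and TSSs came from GENCODE M21 and sequences from GRCm38.p6, whose bases equalled 329 RefSeq promoters compared. Motif shares are over the 15300 open genes. The calls were tested on made-up peaks with known answers, and all were recovered. Python 3.11.15, pandas 2.3.3, numpy 2.4.6, pysam 0.24.0 and samtools 1.23.1 were used.

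The members, the pathway and marker lists and the motifs were chosen with earlier results of these data known. Every member with a promoter peak in at least 1 replicate is named with its values and the others by subfamily. For distal peaks, the 5 highest members, with ties, and those with 0 are named. Runs, unique words, the TSS types, gene ends, motifs in replicate 2 and the Cyp11a1 and Ugt1a details were chosen after seeing the data. Alternatives changed the windows, the TSSs, the overlap, the peaks kept, hotspots for peaks and the replicates used.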

Additional observations from a re-analysis of the deposited data

How the results depend on the processing

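Of the 30 alternatives for the number of open genes, 27 stayed within 1.5 times the value reported. The exceptions were all for UGT genes, 2 open with a 500 bp window, 1 with the stronger peaks only, and 1 among the 10 genes with at least 90% unique words. That last choice also lowers the number of genes: the Cyp1 to Cyp4 count of 16 is of 39 genes, so the share moved from 22.2% to 41.0%, against 78.4% of all genes. With replicate 1 or replicate 2 left out, the open counts were 23 and 19 for Cyp1 to Cyp4, 11 and 9 for the other families and 4 and 4 for UGT genes. The median number of distal shared peaks moved with the window and the peaks kept, as did that of all genes. Within 100 kb it was 4 for Cyp1 to Cyp4, 13 for the other families and 3 for UGT genes, against 10 for all genes. With the stronger peaks only it was 0, 3 and 0, against 3. For the other families it was also 3 within 25 kb, against 2, and 4 from the 5′-most TSS, against 4. In 1 replicate alone it was 3 to 3 for Cyp1 to Cyp4, 8.50 to 9.50 for the other families and 2 to 2 for UGT genes, against 7 to 8. So the Cyp1 to Cyp4 and UGT medians stood below that of all genes in each of these settings, and the median of the other families did not. Median promoter strength of the other families was 120 from the 5′-most TSS alone and 120 from TSSs of protein-coding transcripts alone, a choice made after seeing the data. That of UGT genes was 46.5 with the 500 bp window and 48.5 with the stronger peaks only, where fewer genes remain. No paired analysis was possible because there is only 1 group. Depth is unknown, so weak promoters may have been missed.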

Other observations

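The shared peaks near the 3′ ends of the 9 Cyp4f genes were looked at further. Outside Cyp4f 11 of 99 members at least 5000 bp long (11.1%) had a shared peak centred within 1500 bp of the 3′ end. Of all protein-coding genes of that length 9.40% had one. Within 1000 bp it was 8 of 9 Cyp4f genes and 3 of the 99 (3.03%), against 6.71% of all such genes. Within 500 bp it was 4 of 9 and 2 of the 99 (2.02%), against 3.39%. The subfamily was chosen after these peaks were seen, and the genes are paralogs, so the counts are a description. The strongest such peak of each gene had strengths in replicates 1 and 2 of 106 and 106 at Cyp4f13, 92 and 115 at Cyp4f16, 92 and 107 at Cyp4f17, 92 and 100 at Cyp4f37 and 76 and 98 at Cyp4f39. It was weaker at Cyp4f18 (50 and 73), Cyp4f14 (50 and 70), Cyp4f40 (30 and 40) and Cyp4f15 (18 and 23). Cyp4f18 lies on chromosome 8 and the others on chromosome 17, and Cyp4f14, Cyp4f18 and Cyp4f40 had no promoter peak.

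The 3′ peaks of Cyp4f16 and Cyp4f17 were 93.9% identical over 131 aligned columns on the gene strand. Those of Cyp4f13 and Cyp4f40 were likewise 93.9% identical over 131, and that of Cyp4f18 matched Cyp4f13 at 118 of 133 and Cyp4f40 at 116 of 130. The other 3′ peaks were less alike over their longest alignments. These were 58.0% identical over 112 columns for Cyp4f14, 63.9% over 133 for Cyp4f37 and 63.3% over 79 for Cyp4f39. That of Cyp4f15 was 60.8% identical to Cyp4f16 over 153 columns, and 97.6% to Cyp4f40 over 41. What identity unrelated sequences would give was not tested.

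Outside Cyp4f, peaks near the 3′ end were found at Cyp2f2 (57 and 74), Cyp2s1 (49 and 80) and Cyp3a13 (24 and 29), the latter being the only Cyp3a gene that has distal shared peaks within 50 kb. The other 8 members with such a peak were Ugt1a genes, which share 1 peak (21 and 48) at the common end of the locus.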
